A study of Rattus norvegicus with 8 samples.

Results

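The genes described here encode the subunits of integrins and laminins, the main matrix receptors of the cell surface and the main glycoproteins of basement membranes. Members were taken by gene name from the deposited gene table of rat thoracic aorta, as Itga and Itgb genes for integrins and as Lama, Lamb and Lamc genes for laminins. The rule found 36 of 19238 genes, of which 25 were integrin genes (17 alpha and 8 beta subunits) and 11 laminin genes. The study sequenced total RNA of the thoracic aorta from rats of the Goto-Kakizaki (GK) strain, a lean model of inherited diabetes that the labels place in a group named Diabetic Macroangiopathy, and from Wistar rats as controls. All rats were 7 to 8 weeks old, and no treatment is given for either group. Each group had 4 libraries, numbered 7 to 10 in the labels. Strain and diabetes split the samples in the same way and cannot be told apart. The titles name a rat for each library, but whether all libraries come from different animals is not stated further, and the p-values rest on the spread among the 8 libraries alone.

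An integrin is a pair of an alpha and a beta subunit, and the pair decides which matrix protein the cell can hold. Collagen, laminin, proteins with an Arg-Gly-Asp (RGD) sequence such as fibronectin and vitronectin, and counter-receptors on other cells are bound by different pairs, most of them with Itgb1 as the beta subunit. A laminin is a trimer of an alpha, a beta and a gamma chain. In the vessel wall, smooth muscle and endothelial cells rest on laminin, Itga8 is known as a smooth muscle integrin, and Lama4 and Lama5 are the alpha chains of endothelial basement membranes.

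Gene counts summed to between 11760397 and 16266151 per library. Integrin genes took 22230 to 62519 of these counts and laminin genes 17688 to 36176. Some libraries carried RNA of other tissues. The 5 skeletal muscle markers found in the table summed to 15398 CPM (counts scaled by library total and TMM factor) in GK 9 and to 16.8 to 46.9 CPM in the other 7 libraries. The 4 cardiomyocyte markers summed to 743 CPM in GK 7, 1463 CPM in GK 8 and 410 CPM in control 7, and to 4.35 CPM or less elsewhere. In bulk tissue, fewer cells of a type and less RNA per cell cannot be told apart. The tissue's defining markers were detected as far as they were matched, with 7 smooth muscle markers summing to 2354 to 6380 CPM in GK libraries and to 4631 to 12373 CPM in controls. Fat RNA was present in all libraries. The 8 adipocyte markers summed to 7809 to 17867 CPM in GK and to 5320 to 9364 CPM in controls. In every GK library this sum was above the smooth muscle sum. Among them Ucp1, a brown fat gene, averaged 2827 ± 1196 CPM in GK and 970 ± 812 CPM in controls. Of 7 endothelial markers listed 6 were matched, Pecam1 not among them, and their sums were 938 to 1176 CPM in GK and 592 to 940 CPM in controls.

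Of the 25 integrin genes 23 passed the filter on low counts, and 4 differed between the groups at an edgeR adjusted p under 0.05. Itga8, Itga11 and Itga9 fell in GK and Itga6 rose. The background is 7.28% of 13673 tested genes called in either direction, 3.96% higher and 3.31% lower in GK; among the tested integrins 4.35% were higher and 13% lower. The median log2 fold change (GK over control) of the 23 integrins was -0.25 with 15 below 0, and that of all tested genes was 0.00. None of the 10 tested laminin genes was called by edgeR, while 4 had an unadjusted p under 0.05, all lower in GK. A DESeq2 Wald test called 3, and it also called more genes than edgeR over all genes, as given further on. At an unadjusted p under 0.05, 13.4% of all tested genes were lower and 14.2% higher. The laminin median was -0.38. Of the 10, 3 had all GK libraries below all controls and 1 had them above, against 7.79% and 7.69% of all tested genes. Among the integrins, 8 were lower and 1 higher at an unadjusted p under 0.05. GK 9 weighed on these counts: without it, edgeR called 7 integrins and 4 laminins, while over all genes it then called 3047 in place of 995. With 1 library left out in turn, the integrin median ran from -0.67 without GK 9 to -0.002 without control 9, and the laminin median from -0.47 without control 8 to -0.20 without control 9. Itga10, Itgb6 and Lama1 stayed below the filter, with 0 to 9, 0 to 69 and 0 to 17 counts per library; the 69 counts of Itgb6 were in GK 9.

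**Figure D1:**
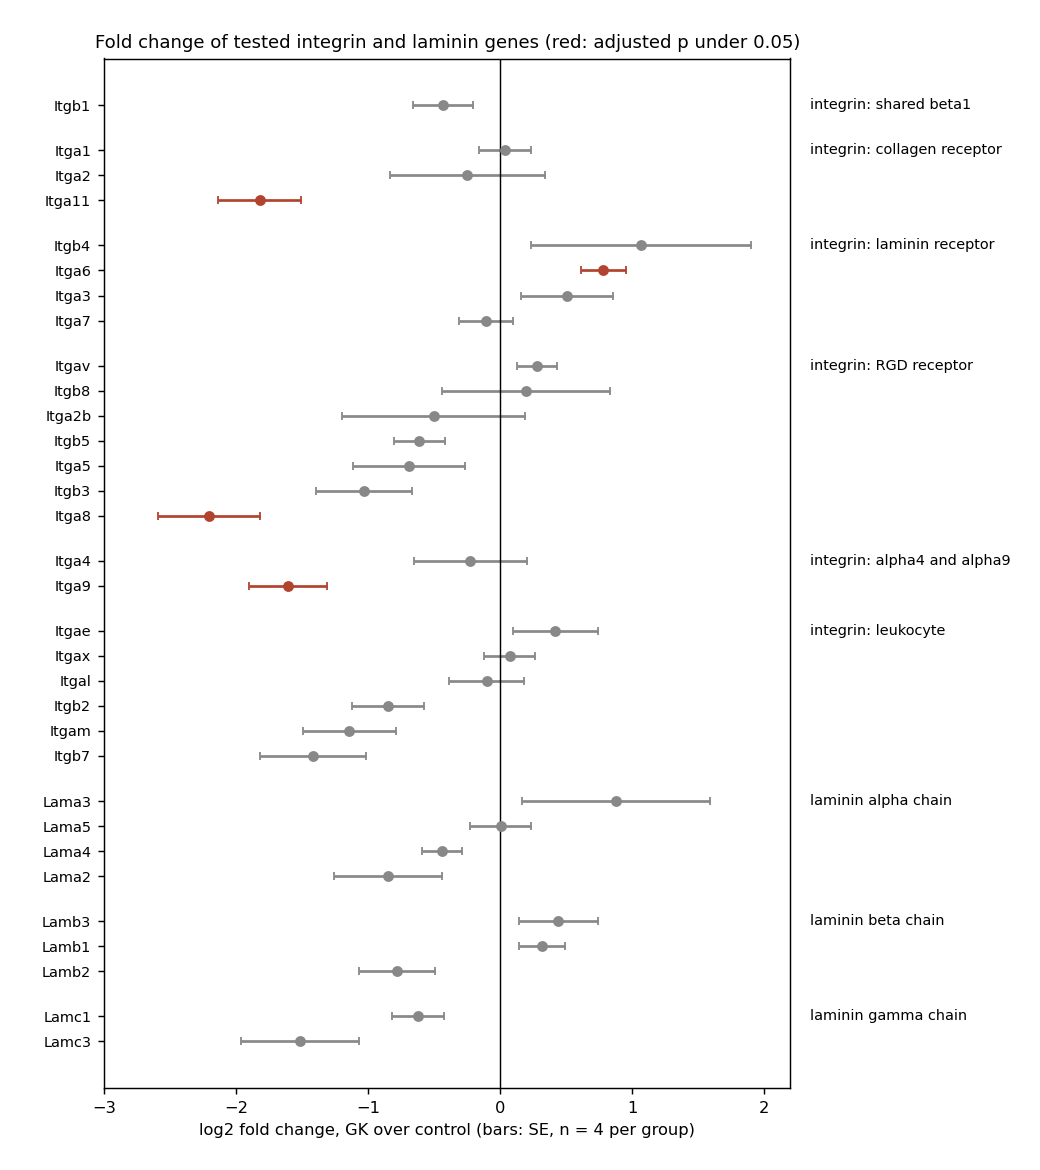
Log2 fold change, GK over control, of tested integrin and laminin genes, grouped by ligand class or chain; points are edgeR estimates, bars are SE (n = 4 libraries per group) and red marks an adjusted p under 0.05. Itga8, Itga11 and Itga9 lie at -2.21, -1.82 and -1.61 and Itga6 at 0.78, while the laminin genes shown are drawn in grey.

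Among the receptors of the RGD sequence, Itga8 fell in GK and the others did not pass the test. Itga8, whose partner is Itgb1 and whose known ligands are nephronectin and fibronectin, is encoded on chromosome 17 at 79321900 to 79676499 (ENSRNOG00000016538; coordinates as the files give them, on a rat build not given in the sources used here). It stood at 178, 283, 355 and 428 CPM in GK 7 to 10, against 749, 1560, 1311 and 2133 CPM in controls 7 to 10. Every GK library lay below every control library. The mean was 311 ± 106 CPM in GK and 1439 ± 574 CPM in controls (SD, n = 4 each), 4.61-fold lower in GK, with a log2 fold change of -2.21 ± 0.39 (SE) and an edgeR adjusted p of 0.0184. Groups that do not overlap with GK below were found for 7.79% of all tested genes, and for 4 of the 23 integrins.

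The make-up of the alpha integrins also differed between the groups. By the authors' FPKM (fragment counts scaled by gene length and library size, so comparable between genes of different length), Itga8 held 20.4 ± 5.54% of the summed level of the 17 alpha subunits in GK, from 13.6% to 27.1%, against 49.96 ± 7.48% in controls, from 41.7% to 57.4%. It was the highest alpha subunit in every control library. In GK libraries its share lay beside that of Itgav, the alpha subunit of the vitronectin receptors, with 21.3 ± 3.35% of the alpha level in GK and 9.62 ± 1.68% in controls. The CPM of Itgav itself averaged 182 ± 11.1 in GK and 151 ± 26.4 in controls, with overlapping groups (log2 fold change 0.28, edgeR adjusted p = 0.271). A share can move because another subunit moved, and these shares carry no test.

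**Figure D2:**
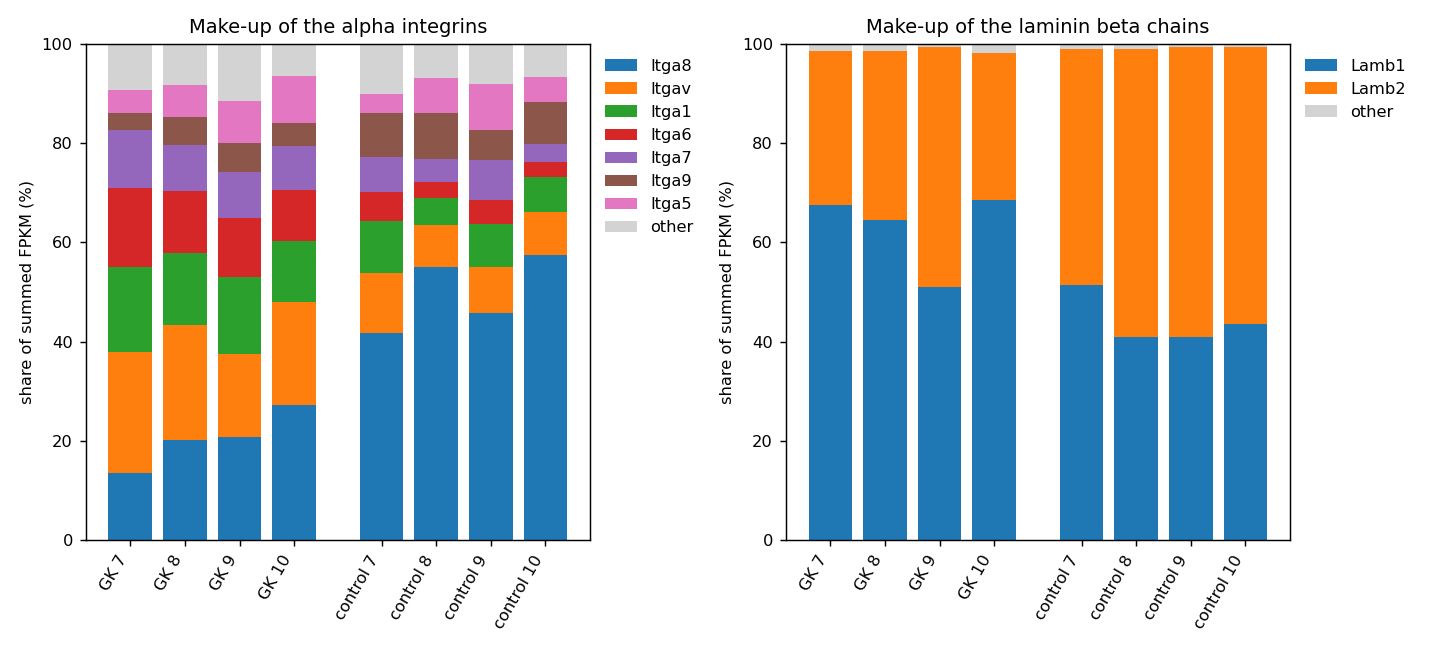
Share (%) of each gene in the summed authors' FPKM of the alpha integrins (left) and of the laminin beta chains (right), with a bar per library, GK 7 to 10 left of controls 7 to 10. Itga8 takes 13.6% to 27.1% of the alpha integrin level in GK and 41.7% to 57.4% in controls, and Lamb1 takes 50.9% to 68.6% of the beta chain level in GK and 40.8% to 51.4% in controls.

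The other RGD receptor genes moved less. Itga5, the fibronectin receptor subunit, had 46.6, 68.8, 110 and 112 CPM in GK 7 to 10, against 50.8, 150, 202 and 143 CPM in controls 7 to 10. Control 7 lay among the GK libraries, and the log2 fold change of -0.69 had an edgeR adjusted p of 0.324. Itgb3, the beta subunit of platelets and of growing vessel cells, averaged 19.0 ± 8.16 CPM in GK and 39.0 ± 14.3 CPM in controls (-1.03, edgeR adjusted p = 0.117). Itgb5, another partner of Itgav, averaged 61.7 ± 10.2 CPM in GK and 94.4 ± 22.4 CPM in controls (-0.61, edgeR adjusted p = 0.0905). Neither passed the threshold with all 8 libraries. Without GK 9, Itgb3 did, at -1.35 and an edgeR adjusted p of 0.0260, in 1 alone of the 8 runs with a library left out. Of 7 tested genes of the RGD class 1 fell and none rose, with a class median of -0.61.

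Itga2b, the platelet fibrinogen receptor subunit, was high in the libraries with high platelet markers. It had 11.5, 4.74, 15.99 and 8.40 CPM in GK 7 to 10, against 2.57, 23.7, 26.0 and 5.602 CPM in controls 7 to 10. Pf4, platelet factor 4, had 7.31, 4.53, 11.1 and 8.40 CPM in GK and 4.92, 29.0, 35.3 and 5.26 CPM in controls, so controls 8 and 9 were high for both genes. The 5 platelet markers summed to 7.49 to 20.8 CPM in GK and 6.91 to 60.4 CPM in controls, and their part in the Itga2b values was not tested. Itgb8, which takes part in TGF-beta activation with Itgav, stood at 37.0 CPM in GK 9 and at 4.53 to 10.99 CPM in the other GK libraries, against 9.19 to 15.6 CPM in controls.

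Among the collagen receptors Itga11 fell and Itga1 did not pass the test. Itga11, a receptor of fibrillar collagen on fibroblasts, lies on chromosome 8 at 67615635 to 67683973 (ENSRNOG00000006723). It had 16.01, 18.1, 34.4 and 16.4 CPM in GK 7 to 10, against 60.8, 73.8, 57.5 and 109 CPM in controls 7 to 10. GK 9 was the highest GK library and still lay below all controls. The log2 fold change was -1.82 ± 0.31 (SE), 3.53-fold lower in GK, with an edgeR adjusted p of 0.0178. Itga1, the collagen receptor of smooth muscle and the collagen-binding alpha subunit of highest level here, averaged 158 ± 21.5 CPM in GK and 154 ± 37.5 CPM in controls (0.04 ± 0.20, edgeR adjusted p = 0.917). Itga2, the collagen receptor of platelets and epithelium, stayed between 0.741 and 4.73 CPM in all libraries.

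Itga9 and Itga4 bind partly shared ligands outside the main RGD group, with Itga9 known as a receptor of tenascin-C and osteopontin and Itga4 as the leukocyte receptor of VCAM-1. Itga9 lies on chromosome 8 at 127271289 to 127572988 (ENSRNOG00000043167). It had 24.0, 41.6, 52.2 and 39.6 CPM in GK 7 to 10, against 83.5, 139, 93.2 and 166 CPM in controls 7 to 10. The groups did not overlap, and the log2 fold change was -1.61 ± 0.29 (SE), 3.05-fold lower in GK (edgeR adjusted p = 0.0213). Itga4 had 11.2 ± 6.31 CPM in GK and 13.2 ± 5.44 CPM in controls (-0.23, edgeR adjusted p = 0.758).

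The start regions of Itga8, Itga11 and Itga9 are printed because these 3 subunits fell together. They are RefSeq promoters on GRCr8, 250 bases before to 50 after the annotated start, written 5′ to 3′ on the gene's strand, at chr17:80410584-80410883 (minus strand), chr8:72041182-72041481 (plus strand) and chr8:127185039-127185338 (plus strand). Capitals mark matches to GGGCGG, the core of a GC box, here always in its reverse form.
Itga8: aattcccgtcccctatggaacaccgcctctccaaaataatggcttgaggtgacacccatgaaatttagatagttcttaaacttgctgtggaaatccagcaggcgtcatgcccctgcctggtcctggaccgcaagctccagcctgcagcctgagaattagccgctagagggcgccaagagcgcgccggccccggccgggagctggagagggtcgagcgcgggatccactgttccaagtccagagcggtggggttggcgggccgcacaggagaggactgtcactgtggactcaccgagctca
Itga11: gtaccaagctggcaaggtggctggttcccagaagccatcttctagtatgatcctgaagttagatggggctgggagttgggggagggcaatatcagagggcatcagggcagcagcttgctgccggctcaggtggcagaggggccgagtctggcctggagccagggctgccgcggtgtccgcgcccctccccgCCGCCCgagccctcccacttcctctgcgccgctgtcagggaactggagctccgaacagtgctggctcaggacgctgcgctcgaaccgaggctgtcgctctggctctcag
Itga9: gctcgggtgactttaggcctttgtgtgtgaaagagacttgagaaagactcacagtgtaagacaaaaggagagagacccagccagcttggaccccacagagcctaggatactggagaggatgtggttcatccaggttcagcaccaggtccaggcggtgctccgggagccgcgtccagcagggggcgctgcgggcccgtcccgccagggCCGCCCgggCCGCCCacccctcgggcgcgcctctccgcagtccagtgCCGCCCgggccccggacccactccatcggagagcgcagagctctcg
Itga8 had no match to any of 5 motifs searched on both strands. Itga11 had 1 GC box beginning 59 bases before the start, and Itga9 had 3, beginning 43 and 34 bases before it and at base 5 after it. Over all 33469 promoters of this length, 33.1% held GGGCGG; 28 of the 36 members matched an entry, and 15 of those held it. The CArG box, the serum response factor motif of smooth muscle genes, was in 1.64% of all promoters and in 2 member promoters, Itgb6 and Lama2. TATAAA was in 14.2% of all and 2 members, CAGACA, a SMAD-binding core, in 21.1% and 11, and TGACTCA, the AP-1 motif, in 4.63% and 2. The GC content of the windows was 60.3% for Itga8, 65.7% for Itga11 and 66.7% for Itga9, against 52.7% over all promoters. A match describes letters in the window and is no evidence of binding.

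The laminin receptors held the 1 integrin that rose. Itga6, which pairs with Itgb1 or Itgb4 and is high in endothelium and nerve sheath, is annotated on chromosome 3 at 58443101 to 58515124 (ENSRNOG00000001518). It had 213, 179, 207 and 166 CPM in GK 7 to 10, against 107, 89.5, 140 and 110 CPM in controls 7 to 10. Every GK library lay above every control library, as was the case for 7.69% of all tested genes. The mean was 191 ± 22.7 CPM in GK and 112 ± 21.2 CPM in controls (SD, n = 4 each), 1.72-fold higher, with a log2 fold change of 0.78 ± 0.17 (SE) and an edgeR adjusted p of 0.0334. By authors' FPKM its share of the alpha subunits was 12.7 ± 2.37% in GK and 4.16 ± 1.41% in controls.

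Itga7, the laminin receptor of muscle cells, did not pass the test. It averaged 148 ± 13.2 CPM in GK and 160 ± 48.4 CPM in controls (-0.10, edgeR adjusted p = 0.769), with 232 CPM in control 9 against 131 to 140 CPM in the other controls. Itgb4, the hemidesmosome subunit that Schwann cells also use, had 36.5, 94.5, 394 and 27.8 CPM in GK 7 to 10, against 49.7, 36.8, 130 and 48.9 CPM in controls 7 to 10. GK 9 stood far above the rest, and the log2 fold change of 1.07 ± 0.83 did not pass the test (edgeR adjusted p = 0.432). Without GK 9 it was -0.31. The 5 Schwann cell markers summed to 116 to 810 CPM in GK and 64.7 to 189 CPM in controls, and their part in the Itgb4 values was not tested. Itga3, a laminin receptor of epithelium and endothelium, averaged 18.4 ± 9.18 CPM in GK and 13.0 ± 3.73 CPM in controls, with 32.2 CPM in GK 9. The class median was 0.64 over 4 tested genes, with 1 higher and none lower, and without GK 9 the median was -0.02.

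**Figure D3:**
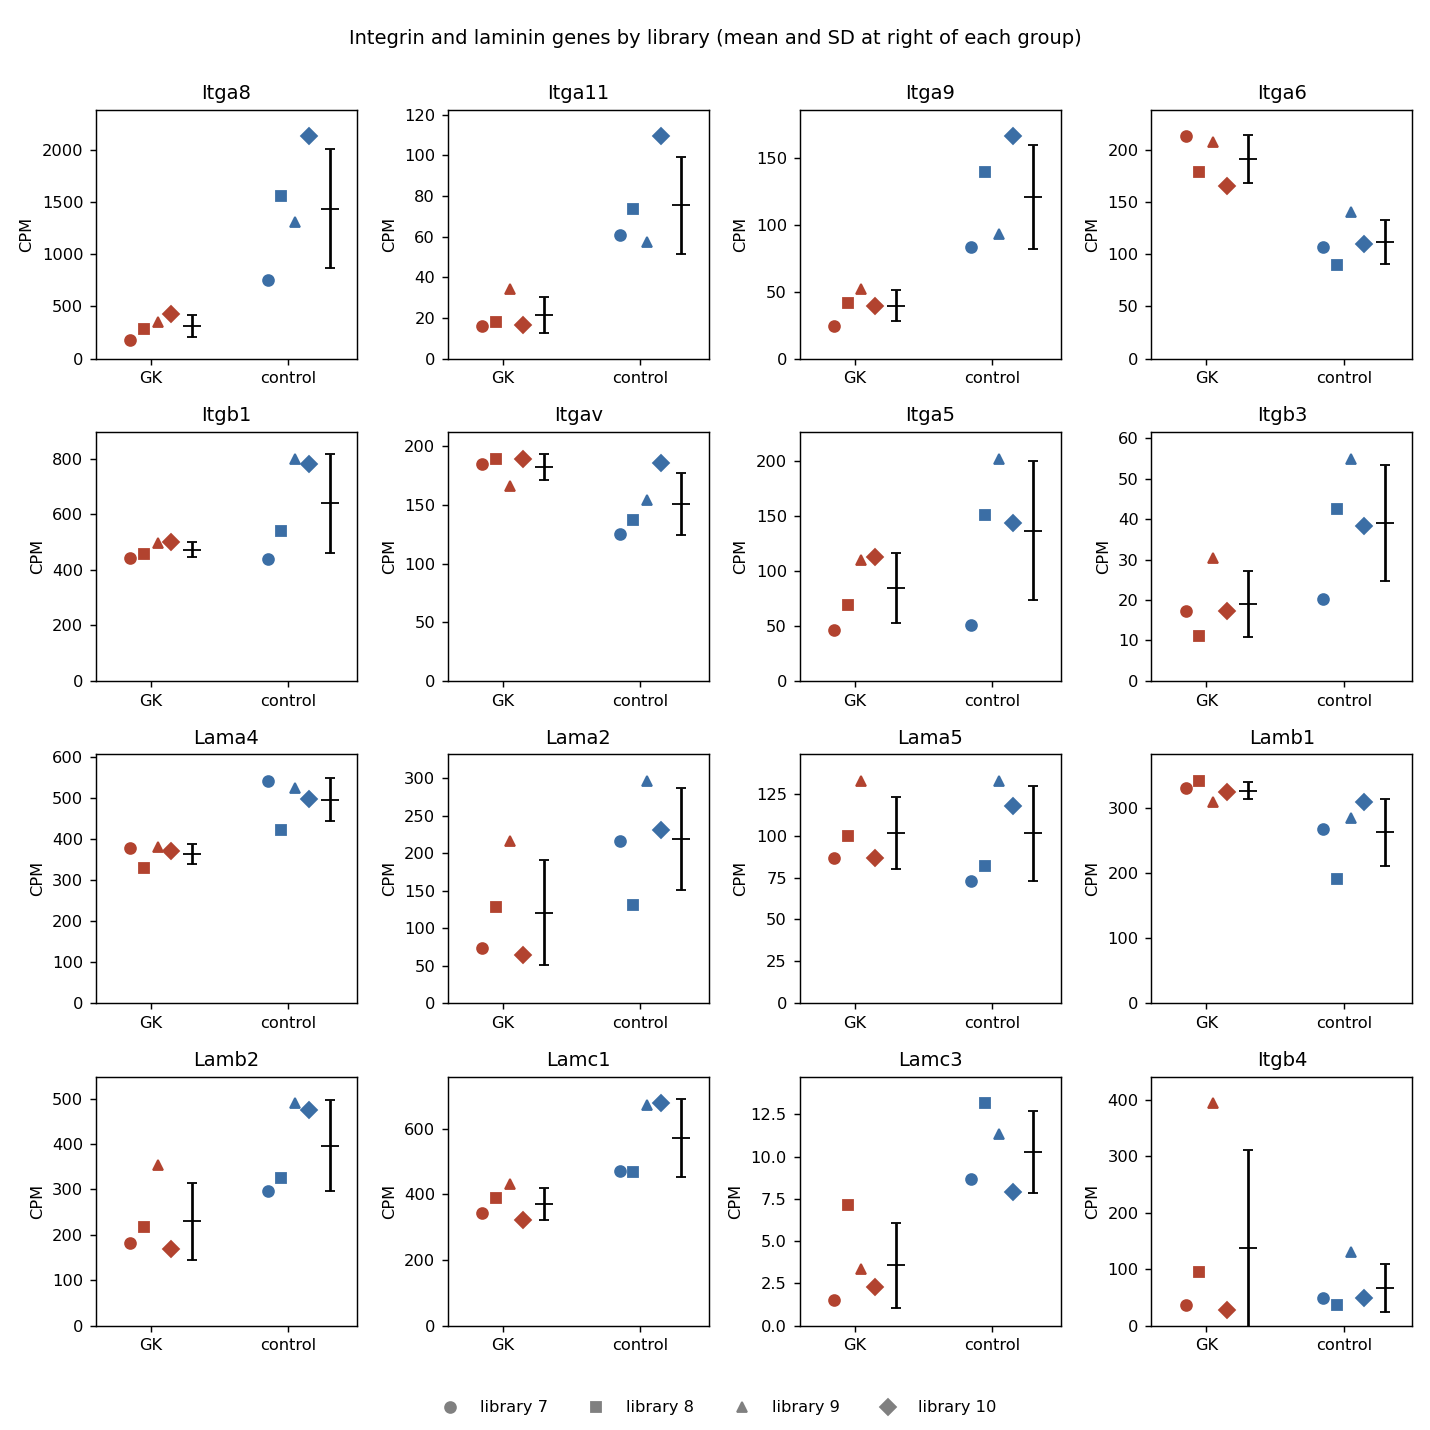
CPM per library of 16 integrin and laminin genes, GK left of control in each panel; symbols give the library number, and the line with whiskers at the right of each group is the mean and SD (n = 4). Itga8 lies at 178 to 428 CPM in GK and 749 to 2133 CPM in controls, and Itgb4 reaches 394 CPM in GK 9 alone.

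Itgb1, the beta subunit that most of these alpha subunits share, had 442, 455, 494 and 499 CPM in GK 7 to 10, against 440, 538, 799 and 779 CPM in controls 7 to 10. Control 7 lay at the level of the GK libraries, and the log2 fold change of -0.43 ± 0.22 did not pass the test (edgeR adjusted p = 0.2496). By authors' FPKM it made up 75.9 ± 11.2% of the beta subunit level in GK and 77.0 ± 2.76% in controls. In FPKM, Itgb1 averaged 124 ± 25.5 in GK and 190 ± 72.9 in controls, beside 51.1 ± 19.8 in GK and 262 ± 110 in controls for Itga8. The mean Itga8 level was thus below that of its partner in GK and above it in controls.

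None of the 6 tested leukocyte integrins was called by edgeR, 3 had an unadjusted p under 0.05, all lower in GK, and DESeq2 called those 3. Without GK 9, edgeR called Itgb7 (-1.83, adjusted p = 0.0103) and Itgb2 (-0.98, adjusted p = 0.0409), and without control 8 it called Itgam (-1.39, adjusted p = 0.0363). Each was called in 1 alone of the 8 runs with a library left out. Itgb2, the common beta subunit of leukocytes, had 10.1, 14.1, 14.97 and 7.79 CPM in GK 7 to 10, against 17.1, 15.1, 28.5 and 24.1 CPM in controls 7 to 10. The groups did not overlap (-0.85 ± 0.28, edgeR adjusted p = 0.0943). Itgam, the macrophage and neutrophil complement receptor subunit, averaged 8.80 ± 2.62 CPM in GK and 19.5 ± 7.31 CPM in controls (-1.14, edgeR adjusted p = 0.0832). Itgb7, the lymphocyte homing subunit, averaged 3.08 ± 1.58 CPM in GK and 8.27 ± 2.92 CPM in controls (-1.42, edgeR adjusted p = 0.0668). Itgal, the lymphocyte partner of Itgb2, averaged 12.7 ± 4.68 CPM in GK and 13.6 ± 2.77 CPM in controls, and Itgae and Itgax had log2 fold changes of 0.42 and 0.07. The 8 leukocyte markers summed to 247 to 389 CPM in GK and 411 to 810 CPM in controls, without overlap. Lyz2, lysozyme of macrophages and neutrophils, was the 1 marker called (-1.45, edgeR adjusted p = 0.0170), and without it the other 7 summed to 124 to 232 CPM in GK and 134 to 285 CPM in controls, with overlap. Among those 7, Cd68 had a log2 fold change of 0.77 and Ptprc one of -0.11. The part of these markers in the integrin values was not tested. Itgax lies within the locus of Itgam in the files' coordinates, so their reads could be shared.

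Among the laminins, Lama4, Lamb1, Lamb2 and Lamc1 made up most of the signal. Lamc1, the gamma chain of most laminins, had 343, 390, 432 and 321 CPM in GK 7 to 10, against 473, 468, 672.5 and 677 CPM in controls 7 to 10. All GK libraries lay below all controls, but the log2 fold change of -0.62 ± 0.20 did not pass the test (edgeR adjusted p = 0.0921). Without GK 9 it did, at -0.69 and an edgeR adjusted p of 0.0445. Lamc3, a gamma chain of low level, had 1.53, 7.14, 3.33 and 2.27 CPM in GK 7 to 10, against 8.67, 13.1, 11.3 and 7.92 CPM in controls 7 to 10. Its groups did not overlap either (-1.52 ± 0.45, edgeR adjusted p = 0.0746), and without GK 8 it was called, at -2.09 and an edgeR adjusted p of 0.0431. Of the 8 runs with 1 library left out, Lamc1, Lamc3, Lama2, Lamb2 and Lamb3 were each called in 1 alone. By FPKM, Lamc1 held 97.6 ± 1.14% of the gamma chain level in GK and 96.4 ± 1.001% in controls.

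Lama4, the alpha chain of endothelial and smooth muscle laminins, had 378, 329, 380 and 371 CPM in GK 7 to 10, against 541, 422, 524 and 497 CPM in controls 7 to 10. The groups did not overlap, and the log2 fold change was -0.44 ± 0.15 (edgeR adjusted p = 0.107). It remained the main alpha chain, at 73.4 ± 8.19% of the alpha chain FPKM in GK and 72.2 ± 4.81% in controls. Lama2, the alpha chain of muscle and nerve, averaged 121 ± 69.5 CPM in GK and 219 ± 67.7 CPM in controls (-0.85, edgeR adjusted p = 0.217), with 216 CPM in GK 9 against 64.6 to 128 CPM in the other GK libraries. Without GK 9 the change was -1.28 and passed (edgeR adjusted p = 0.0285). Lama5, the other endothelial alpha chain, averaged 101 ± 21.5 CPM in GK and 101 ± 28.3 CPM in controls (0.01 ± 0.23, edgeR adjusted p = 0.990). Lama3, an epithelial chain, ranged from 2.87 to 14.2 CPM in GK and from 0.556 to 7.45 CPM in controls.

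Neither of the main beta chains passed the test. Lamb1 had 331, 341, 310 and 325 CPM in GK 7 to 10, against 267, 190, 285 and 309 CPM in controls 7 to 10. Every GK library lay above every control, with 309.8 CPM in GK 9 and 309.3 CPM in control 10 the nearest pair. Its log2 fold change of 0.32 ± 0.17 did not pass the test (edgeR adjusted p = 0.275). Lamb2, the beta chain known from smooth muscle and synaptic basement membranes, had 183, 216, 354 and 168 CPM in GK 7 to 10, against 297, 325, 489 and 475 CPM in controls 7 to 10. GK 9 lay among the controls, and the log2 fold change was -0.78 ± 0.29 (edgeR adjusted p = 0.128), or -1.05 with an edgeR adjusted p of 0.0163 without GK 9. Lamb1 took 62.9 ± 8.15% of the beta chain FPKM in GK and 44.2 ± 4.95% in controls. Lamb3, another epithelial chain, was the fourth laminin called without GK 9, higher by 0.67 (edgeR adjusted p = 0.0447). It had 4.90, 5.56, 2.37 and 5.98 CPM in GK 7 to 10, against 3.09 to 3.82 CPM in controls, so GK 9 alone lay below the controls, and with all 8 libraries the log2 fold change was 0.44 and did not pass.

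Ratios of subunits that can stand in for each other were formed within each library, which removes any scaling between libraries. For Itga8 to Itga5 the log2 ratio of counts was 1.94, 2.04, 1.68 and 1.93 in GK 7 to 10, against 3.88, 3.37, 2.70 and 3.90 in controls 7 to 10. The difference of -1.56 had an exact two-sided permutation p of 0.0286, the smallest that 4 against 4 libraries allow, and 0.0714 after adjustment over the 5 ratios. For Itga6 to Itga7 the log2 ratio was 0.46, 0.42, 0.35 and 0.23 in GK and -0.29, -0.60, -0.72 and -0.36 in controls, so Itga6 counts were the higher of the pair in every GK library and the lower in every control (difference 0.86, exact permutation p = 0.0286, adjusted 0.0714). The Lamb1 to Lamb2 ratio was higher in GK by 1.15, but GK 9, at -0.19, fell below control 7, at -0.15 (exact permutation p = 0.0571, adjusted 0.0952). Lama4 to Lama5 differed by -0.46 (exact permutation p = 0.171) and Itgb3 to Itgb5 by -0.45 (exact permutation p = 0.343), both with overlapping groups. No ratio passed 0.05 after adjustment, and with this number of libraries none could have reached an unadjusted p below 0.0286.

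**Figure D4:**
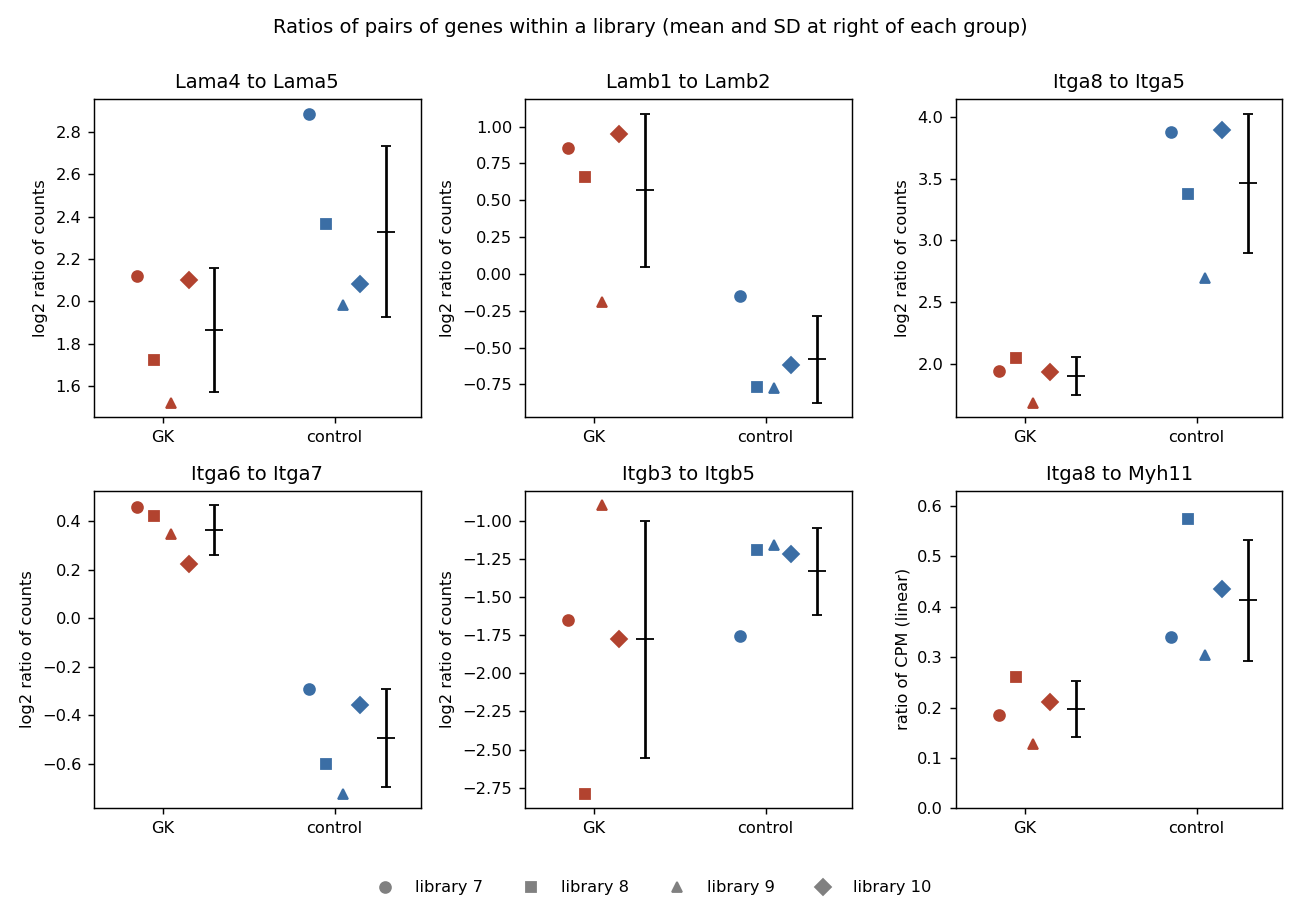
Log2 ratio of counts within each library for the 5 pairs tested, and, at lower right, the linear CPM ratio of Itga8 to the smooth muscle gene Myh11; GK is left of control, symbols give the library number, and whiskers are mean and SD (n = 4). The groups are apart for Itga8 to Itga5, Itga6 to Itga7 and Itga8 to Myh11 and overlap for the other 3 ratios.

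Ligands of the RGD, Itga4 and Itga9 receptors were read from the same edgeR fit. Of 15 tested, 4 fell (26.7%, against 3.31% of all genes) and none rose, with a median of -0.87 and 14 below 0. The list was chosen with earlier results of these data known, so this share is descriptive only. Npnt, nephronectin, the ligand of Itga8, had 27.5, 29.1, 24.2 and 40.8 CPM in GK 7 to 10, against 45.1, 93.5, 82.6 and 111 CPM in controls 7 to 10 (-1.45 ± 0.28, edgeR adjusted p = 0.0249). Both the receptor subunit and this ligand were thus below all controls in every GK library. Fbn1, fibrillin, an RGD protein of elastic fibres, averaged 387 ± 184 CPM in GK and 1306 ± 390 CPM in controls (-1.75, edgeR adjusted p = 0.0345). Tgfb3, a cytokine whose latent form carries an RGD site, averaged 60.9 ± 21.6 CPM in GK and 239 ± 104 CPM in controls (-1.97, edgeR adjusted p = 0.0268). The fourth was Fbln5, fibulin of elastic fibres (-1.65, edgeR adjusted p = 0.0390). Without GK 7, GK 8, control 9 or control 10 in turn, none of these 4 was called. Fn1, fibronectin, had a log2 fold change of -1.11 with an edgeR adjusted p of 0.240; without GK 9 it was called, at -1.88 and 0.0148, and with both libraries numbered 9 left out at -1.63 and 0.0157.

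Of 11 tested partners of laminin in the basement membrane 1 fell (9.09%, against 3.31% of all genes) and none rose. Their median was -0.29, with 10 below 0. This list and that of the adaptors below were also chosen with earlier results of these data known. Col18a1, the collagen that gives endostatin, averaged 132 ± 64.5 CPM in GK and 415 ± 138 CPM in controls (-1.65 ± 0.40, edgeR adjusted p = 0.0466). The nidogen gene Nid1, which links laminin to collagen, and Hspg2, perlecan, had log2 fold changes of -0.64 and -0.48 and did not pass. Of 26 tested focal adhesion adaptors, which tie integrin tails to actin, 1 rose and 1 fell, with a median of -0.33. The share called was 7.69%, near the 7.28% of all tested genes. Fermt2, kindlin, an integrin activator, had 223, 220, 223 and 262 CPM in GK 7 to 10, against 340, 352, 377 and 368 CPM in controls 7 to 10 (-0.63 ± 0.13, edgeR adjusted p = 0.0307). Parvb, beta-parvin, averaged 64.7 ± 7.30 CPM in GK and 40.6 ± 6.25 CPM in controls (0.68 ± 0.15, edgeR adjusted p = 0.0322).

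Markers of several cell types in and around the wall differed between the groups, in both directions. All 7 smooth muscle markers had a log2 fold change below 0 (median -1.08, 1 called), as had all 7 fibroblast markers (median -0.99, 3 called), with sums of 1000 to 3361 CPM in GK and 3245 to 6893 CPM in controls for fibroblasts. Of 6 endothelial markers 1 rose, Kdr, the VEGF receptor (1.45, edgeR adjusted p = 0.0153). Kdr stood at 229.8 to 454 CPM in GK and 103 to 156 CPM in controls. The list's median was 0.30 with 2 below 0, Vwf at -0.51 and Tie1 at -0.02. Of 5 Schwann cell markers, all above 0, 1 rose, Mbp, at 93.0 to 176 CPM in GK and 37.1 to 59.8 CPM in controls (1.38, edgeR adjusted p = 0.0163). The 8 adipocyte markers summed to 7809 to 17867 CPM in GK and 5320 to 9364 CPM in controls. Of these, Plin4 and Cidec, proteins of the lipid droplet, rose (1.09 and 1.07, edgeR adjusted p = 0.0184 and 0.0427). The list's median was 0.95 with 1 below 0, the leptin gene Lep, at -1.92 (edgeR adjusted p = 0.111). What part these shifts have in the integrin values was not tested. The ratios here are descriptive, and the covariate fit given further on uses the adipocyte markers alone. Set against Myh11, smooth muscle myosin, Itga8 had CPM ratios of 0.186, 0.261, 0.129 and 0.211 in GK 7 to 10, against 0.341, 0.573, 0.304 and 0.435 in controls 7 to 10, without overlap. Set against Lmod1, the smooth muscle marker that was called, the Itga8 ratio was 1.68 to 1.95 in GK and 2.05 to 3.99 in controls, also without overlap. The ratio of Itga9 to Myh11 overlapped between the groups. So did both ratios formed for Itga11, which lay in opposite directions: to the fibroblast receptor Pdgfra it was 0.294 to 0.410 in GK and 0.311 to 1.40 in controls, and to the collagen gene Col1a1 it was 0.0386 to 0.0868 in GK and 0.0227 to 0.0423 in controls. The Itga6 ratios overlapped as well, with 0.601 to 0.971 in GK and 0.448 to 0.799 in controls against the endothelial cadherin Cdh5, and 0.469 to 0.902 in GK and 0.685 to 1.23 in controls against Kdr. These ratios were chosen after the values were seen and carry no test.

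**Figure D5:**
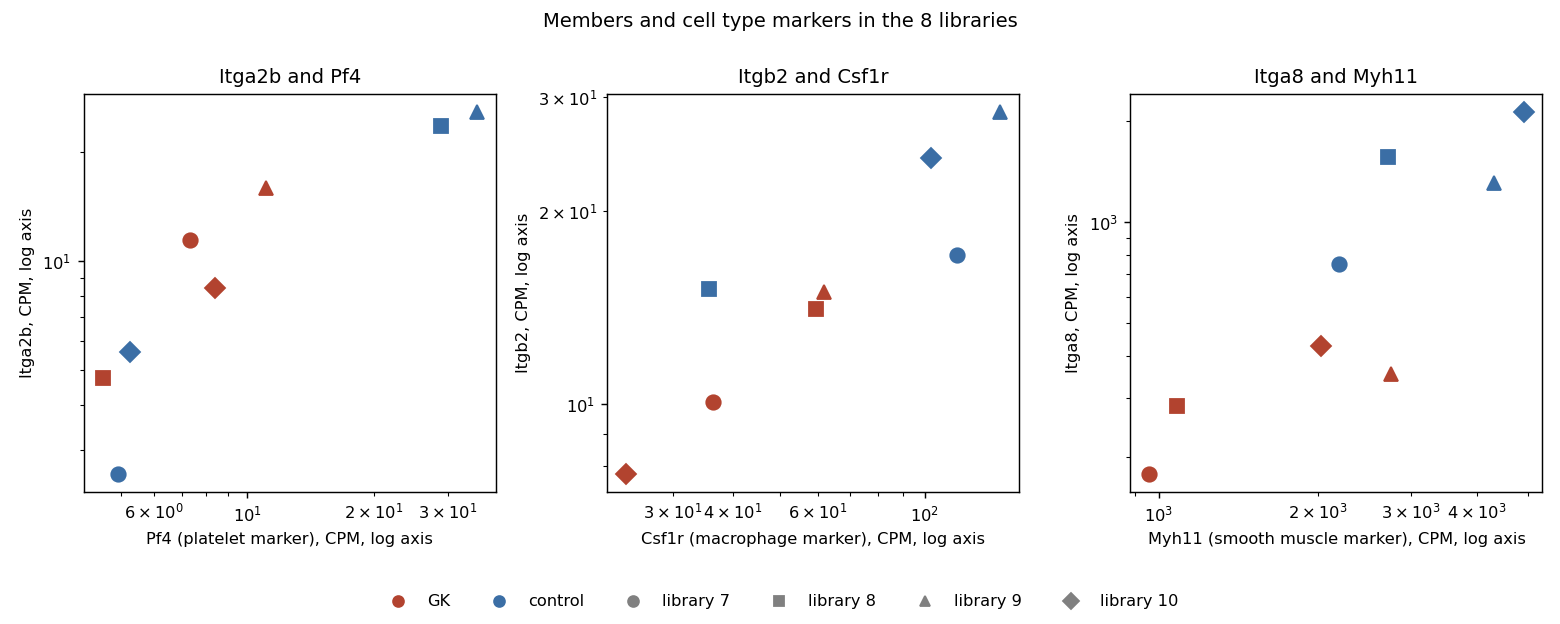
Each panel sets a member (vertical axis, CPM, log axis) against a cell type marker (horizontal axis, CPM, log axis) in the 8 libraries, GK in red and control in blue, with symbols for the library number. Itga2b and Pf4 are highest in controls 8 and 9. Itga8 is lower in GK 9 than in control 8 (355 and 1560 CPM) at nearly the same Myh11 level (2757 and 2721 CPM). The 7 smooth muscle markers together were not at the same level in these libraries, with 6380 CPM in GK 9 and 9693 CPM in control 8.

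The calls depended on single libraries. Without GK 7, GK 8 or control 10 in turn, edgeR adjusted p for Itga8 was 0.0585, 0.0763 and 0.0598, with log2 fold changes of -2.01, -2.16 and -1.96, and Itga11, Itga9 and Itga6 also missed the threshold (0.0554 to 0.103). Without GK 10, Itga8 kept its call (0.0424) while Itga11 had 0.0551, Itga9 0.0605 and Itga6 0.0615; Itga6 also missed it without control 7 (0.0609) and without control 8 (0.0595). With both libraries numbered 9 left out, all 4 were called, Itga8 at -2.31, Itga11 at -2.27, Itga9 at -1.88 and Itga6 at 0.86. With the mean log2 CPM of the adipocyte markers as a covariate none was, and Itga8 then had -1.88 with an edgeR adjusted p of 0.143, Itga11 -1.15 with 0.100, Itga9 -1.26 with 0.156 and Itga6 1.03 with 0.0845. That score went largely with group, at 9.23 to 10.04 in GK and 8.63 to 9.45 in controls. A fit with this covariate therefore cannot tell fat content from group. The number of calls over all genes also moved with the library left out and fell with this covariate, as given further on.

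The authors' deposited table called Itga8, Itga11, Itga9 and Lamc3 lower in GK, 4 of 36 members, against 2.48% of its genes called lower. Its q-values were 1.25e-06 for Itga8, 1.01e-05 for Itga11, 1.45e-04 for Itga9 and 0.0442 for Lamc3. Itga6 had a q-value of 0.0678 in the authors' deposited table and no call. In the authors' deposited table of pathways, 12 of 76 genes of ECM-receptor interaction were called, 11 of them lower, among them Itga8, Itga11 and Lamc3. Focal adhesion had 20 of 195 called, 15 lower and 5 higher, again with Itga8, Itga11 and Lamc3. Over all genes the authors called 2.48% lower and 2.92% higher.

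The authors' predictions pair 3 long non-coding RNAs (lncRNAs) with a neighbouring integrin gene. These predictions cover only lncRNAs that the authors had called different between the groups. Their q-values and group differences thus follow from that choice and are given as description. NONRATT028143.2 lies 2300 bases beyond Itga9, and had 88, 180, 326 and 140 counts in GK 7 to 10, against 468, 537, 481 and 1013 in controls 7 to 10. It was below all controls in every GK library, as was Itga9, and in the authors' deposited table its log2 fold change was -1.93 with a q-value of 0.0182. NONRATT006095.2, 6373 bases from Itga2b, had 4, 3, 3 and 4 counts in GK, against 226, 4, 225 and 256 in controls, so control 8 was at the GK level (q-value 8.80e-07 in the authors' deposited table). NONRATT003235.2, 77 bases from Itgam, had 19, 5, 33 and 1 counts in GK, against 3, 0, 0 and 0 in controls (q-value 0.0153 in the authors' deposited table). Reads of so close a neighbour may belong to either gene, as strand use in counting was not given in the sources used here.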

How the data were processed

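RNA of 4 GK and 4 control thoracic aortas was grouped by the labels' titles. The source names call controls GK as well and were set aside. Raw counts of genes and of lncRNA transcripts were deposited by the authors, and FPKM per library, per the file headers, used here for levels between genes and shares only. The log2 fold changes, p-values and q-values of the authors' deposited table are the authors' own; its calls and its pathway gene numbers were read from the deposited files. The submitters' processing notes name Bowtie 0.12.2 and, with no role, the mouse builds mm8 and mm9. The rat build was not given in the sources used here.

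Genes were tested in R 4.3.3 with edgeR 4.0.16 on all 19238 genes (filterByExpr, TMM, glmQLFit and glmQLFTest, with group alone as a term), with Benjamini-Hochberg adjustment over 13673 genes and a threshold of 0.05. CPM are counts over the library total times its TMM factor (0.825 to 1.24), and the SE was taken as the size of the log2 fold change divided by the square root of F. The 5 ratios used 0.5 added to each count and a two-sided exact permutation test over 70 splits. Of 123 genes on the pathway and marker lists and outside the members, 117 were found by symbol and 1 through a RefSeq synonym. Promoters are RefSeq sequences of GRCr8. The scripts were tested on simulated data. DESeq2 1.42.0 and limma 3.58.1 were loaded for alternatives or by edgeR.

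The members and the lists were chosen with earlier results of these data known. Named genes were the called members, the 2 tested members of highest mean FPKM in each class, the ratio pairs, and the 3 called genes with the lowest adjusted p of each pathway list; all other genes with values, Fbln5, Nid1, Hspg2 and Fn1 among them, were named after their values were seen. Files on circular RNA and most enrichment files were not used, and a few genes are not reported here. Of the 36 members, 11 overlap another gene's locus in the files' coordinates, Itga8, Itga11 and Itga9 not among them. Itga6 is among the 11, with SNORA42 overlapping its locus. Same-numbered libraries did not all deviate together, so no pairing was assumed.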

Additional observations from a re-analysis of the deposited data

Results flagged for a closer look

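Within groups of 4 libraries, 5 of 64 sets of values looked at (7.81%) held a library far from the other 3, where chance gives about 1 in 20. Itga11 stood at 34.4 CPM in GK 9, against 16.01 to 18.1 CPM in the other GK libraries. Lama4 stood at 329 CPM in GK 8, against 371 to 380 CPM in the other GK libraries. Fermt2 stood at 262 CPM in GK 10, against 220 to 223 CPM in the other GK libraries. Itga7 stood at 232 CPM in control 9, against 131 to 140 CPM in the other controls. The log2 ratio of Itgb3 to Itgb5 was -1.76 in control 7, against -1.22 to -1.16 in the other controls.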

How the results depend on the processing

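The 4 integrin calls were unchanged in number with DESeq2 size factors and with no filter on low counts. Over all genes edgeR called 995, against 2489 by a DESeq2 Wald test, 654 with no filter, 2532 with both libraries numbered 9 left out and 83 with the adipocyte score as a covariate. DESeq2 called 8 integrins, 3 laminins, 7 ligands and 5 adaptors, against 4, 0, 4 and 2 by edgeR. With no filter 0 basement membrane partners were called, against 1. With both libraries numbered 9 left out, 2 laminins, 8 ligands and 6 adaptors were called. With the adipocyte score, 0 integrins, 0 ligands, 0 basement membrane partners and 0 adaptors were. With 1 library left out in turn, the counts were 135 to 3047 for all genes, 0 to 7 for integrins, 0 to 4 for laminins, 0 to 9 for ligands, 0 to 1 for basement membrane partners and 0 to 8 for adaptors. The highest count was without GK 9 for all genes, integrins, laminins, ligands and adaptors. Why the counts moved was not tested.

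With the library number as a replicate block, 2372 genes, 7 integrins, 2 laminins, 7 ligands and 10 adaptors were called. Deviations of same-numbered libraries correlated at 0.425, 0.086, 0.552 and 0.0141 for numbers 7 to 10; GK 8 correlated best with control 7, and control 8 with GK 10.

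Among the genes named by rule, signs turned for 5 uncalled ones. Outside that rule, Itgb4 also turned without GK 9, and Lamb3 reached -0.25 among the alternative runs. With 1 library left out in turn, log2 fold changes ran from -0.091 to 0.16 for Itga1, -0.14 to 0.17 for Lama5, -0.34 to 0.074 for Itgal, -0.18 to 0.14 for Itga7 and -0.67 to 0.044 for Itga4. Itga7 was at 0.077 with both libraries numbered 9 left out, and with the adipocyte score Itga7 was at 0.11, Itga4 at 0.62 and Itgal at 0.49. The 5 ratios kept their sign and their side of the threshold in every alternative run, though with 3 libraries in a group no exact p below 0.0571 is possible, and with 3 in both none below 0.1. Depth limits what can be said of Itga10, Itgb6 and Lama1.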
